A study of Mus musculus with 6 samples.

Results

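The genes described here are the cytosolic ribosomal protein genes, which encode the protein parts of the ribosome that works outside mitochondria. They were taken from the count table by symbol (Rps or Rpl with a number, Rplp0 to Rplp2, Rpsa and Fau), leaving out the Rps6k kinases and entries described as pseudogenes, which gave 99 of 18180 genes. By name, 78 of the 99 are the ribosomal protein genes themselves, 32 of the small subunit and 46 of the large subunit. Another 6 are relatives of such a gene (Rpl3l, Rpl7l1, Rpl22l1, Rpl36al, Rpl39l and Rps27l), 5 are retrogene copies (Rpl6l, Rpl32l, Rpl37rt, Rps23rg1 and Rps27rt), 9 carry a pseudogene-type name without a description, and Rps19bp1 encodes a protein that binds Rps19. RNA of mouse tail skin was sequenced in 2 groups of 3 libraries. Mice of the group labelled cKO had the genotype Mettl3fl/fl;K14creERT2+/-, and their tissue came from spontaneously inflamed areas of the tail. Mice of the group labelled Ctrl had the genotype Mettl3fl/fl;K14creERT2-/-, and their tissue came from normal tails. All mice carried the floxed Mettl3 alleles, and the design text describes tamoxifen on 5 consecutive days, with skin taken 4 weeks later. The keratin 14 promoter drives Cre in basal keratinocytes. Skin cells that neither use this promoter nor descend from cells that do are not targeted. Genotype and inflamed tissue cannot be told apart in this design.

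A ribosome joins a small subunit, which reads the mRNA, to a large subunit, which forms the peptide bonds. Each subunit is built on ribosomal RNA from a set of proteins, and mRNAs of these proteins share a run of pyrimidines at their start (the terminal oligopyrimidine, or TOP, motif), through which mTORC1 and LARP1 control their translation and stability. In skin, as in other tissues, demand for ribosomes follows cell growth and division.

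Totals ran from 35855880 to 37043849 counts per library, and 15061 genes had enough counts to be tested. Expression is given as CPM, that is counts per 1e+06 after TMM scaling of each library's total. Where genes are compared with each other, levels are the deposited FPKM (fragments per kilobase per 1e+06). The targeted gene Mettl3 had 569, 512 and 540 counts in the libraries labelled cKO, against 440, 389 and 337 counts in the Ctrl libraries (log2 fold change 0.48, SE 0.109, adjusted p = 0.000102). It was higher in the libraries labelled cKO, which goes against the label, and the counts are per gene, so the floxed exons were not looked at on their own. Epidermal markers were abundant in all libraries, with Krt10 at 24276 ± 109.7 CPM in the libraries labelled cKO and 17342 ± 52 CPM in the Ctrl libraries. Nothing in the labels ties each library to its own animal, and all p-values therefore rest on a library-to-library spread that may be technical. Over the genes tested, libraries of a group differed by a chi-square of 3.91 to 4.08 per gene, which is more than counting noise. Among the 78 ribosomal protein genes the median coefficient of variation between libraries was 1.08% in the group labelled cKO and 0.993% in Ctrl.

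Nearly all ribosomal protein genes had lower CPM in the libraries labelled cKO, by a small and graded amount. Of the 78 genes, 73 fell, Rpl41 and Rps2 rose, and Rpl22, Rpl38 and Rpl39 did not pass the test (edgeR's quasi-likelihood test, adjusted p under 0.05). Over all genes tested 30.6% fell and 30.8% rose by the same rule, and 61.4% passed in either direction. The median log2 fold change was -0.28 over the 78 genes and 0.0021 over all genes tested. The fold changes of the 78 genes ran from -0.51 for Rps19 to 0.42 for Rpl41 on the log2 scale. With a change of at least 1.2-fold required as well, 42 of the 78 fell and 1 rose, where 22.7% of all genes tested fell and 24% rose. Since these genes are abundant, the same counts were also set against genes of at least 200 CPM, a comparison chosen after the values were seen. Of 740 such genes 53.1% fell and 39.1% rose, and 33.8% fell and 25.1% rose at least 1.2-fold. These include 79 of the 99 genes themselves, and of the other 661 genes 48.4% fell and 43.3% rose, and 31.5% fell and 27.8% rose at least 1.2-fold. The values of the 2 groups did not overlap in 76 of the 78 genes, with Rpl38 and Rpl39 as the exceptions, and they did not overlap in 64.9% of all genes tested. With an assumed biological coefficient of variation of 20%, at which 22.3% of all genes tested passed, none of the 99 genes passed in edgeR's likelihood ratio test.

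**Figure D1:**
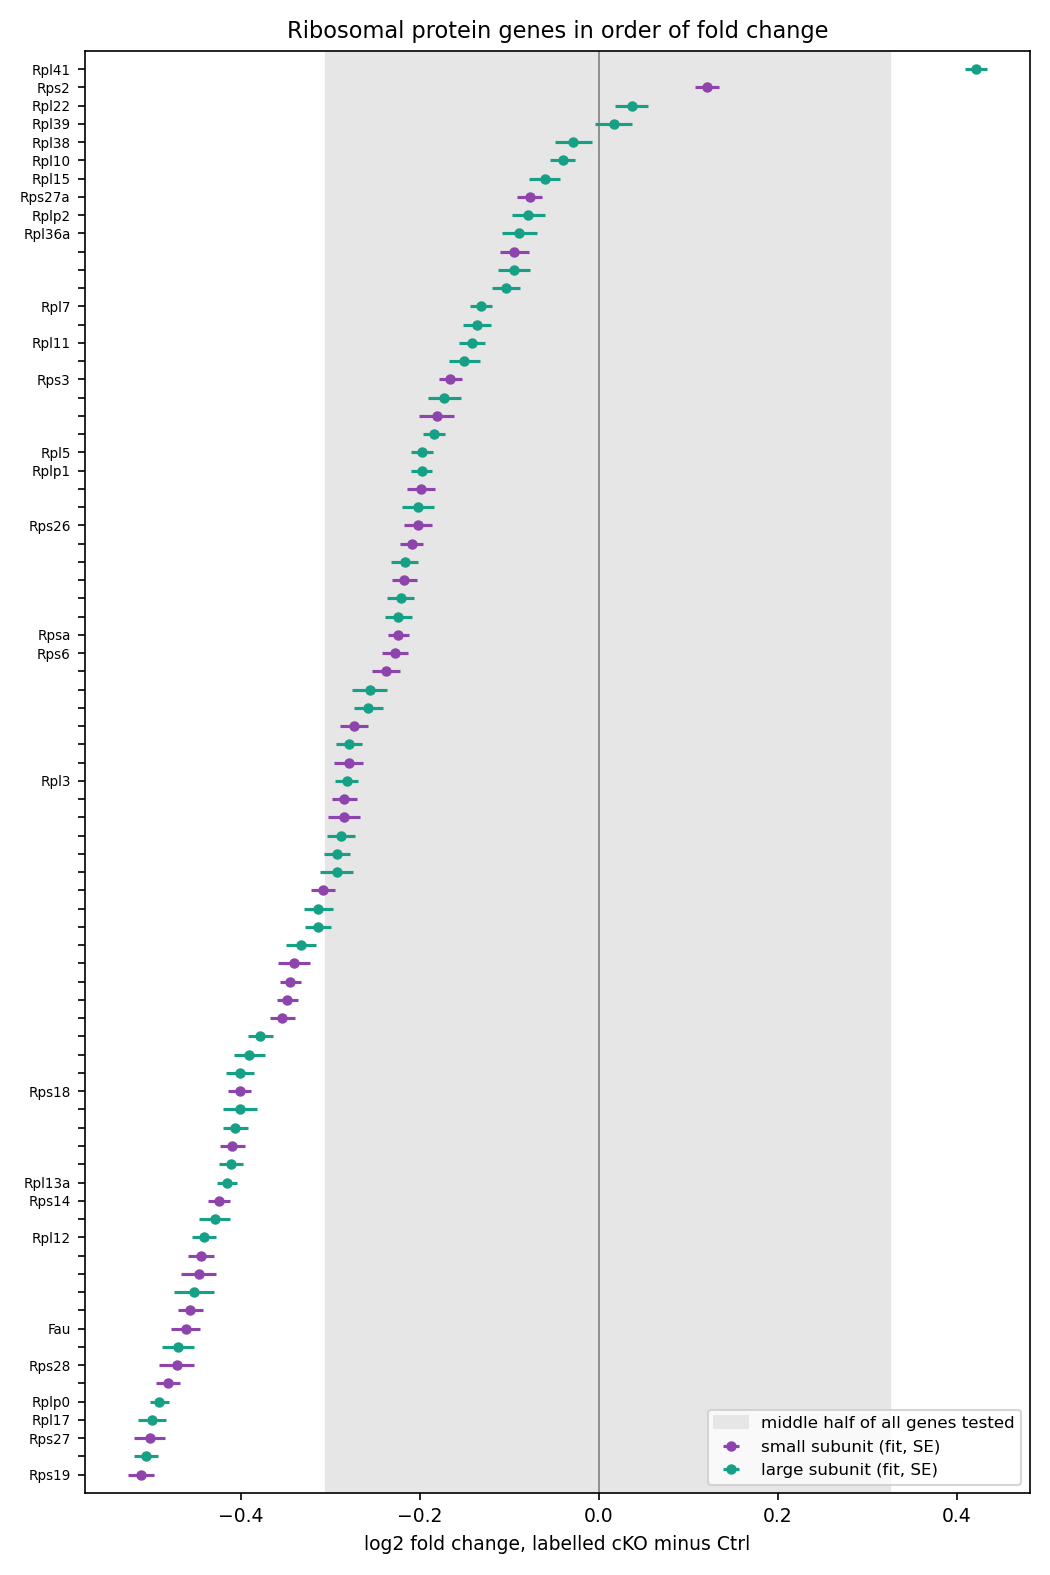
Fitted log2 fold change (labelled cKO minus Ctrl, x axis) with its standard error for each of the 78 ribosomal protein genes, by subunit, in order, with names for genes described in the text. The grey band spans the middle 50% of all genes tested, from -0.31 to 0.32, and 74 of the 78 points lie left of 0.

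Counts in the 99 genes together made up 7.23%, 7.19% and 7.19% of all counts in the libraries labelled cKO, against 8.56%, 8.51% and 8.53% in the Ctrl libraries. Each library labelled cKO lay below each Ctrl library, and the means were 7.20% ± 0.0264 and 8.53% ± 0.0235 (SD, n = 3 each). The 14 genes that were among the 10 most counted of any library took 11.8% ± 0.0645 of counts in the libraries labelled cKO and 9.77% ± 0.0131 in the Ctrl libraries. Without those 14 genes the ribosomal protein share was 8.17% ± 0.0352 in the libraries labelled cKO and 9.45% ± 0.0257 in the Ctrl libraries. These are shares of each library's counts, and absolute amounts of mRNA were not measured. In whole skin, fewer cells with many ribosomes and less ribosomal protein mRNA per cell cannot be told apart.

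**Figure D2:**
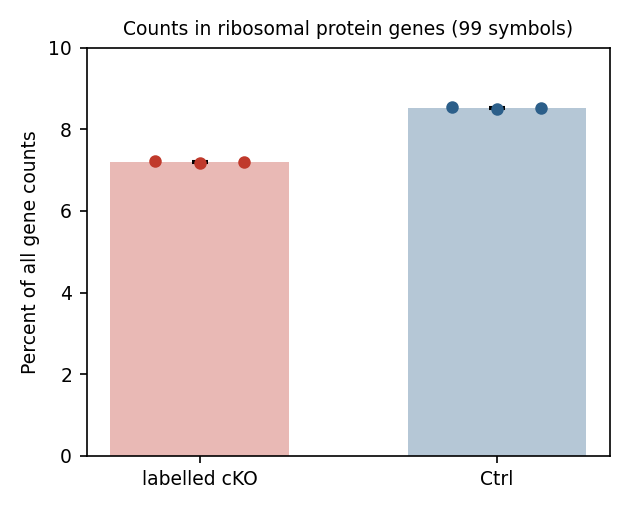
Percent of all gene counts that fell in the 99 ribosomal protein symbols. Points are libraries, bars the mean and whiskers the SD (n = 3 each), with 7.20% in the libraries labelled cKO and 8.53% in Ctrl.

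The small subunit had 31 genes that fell and 1, Rps2, that rose (median log2 fold change -0.30). The large subunit had 42 that fell, 1 that rose and 3 that did not pass (median -0.26). The ratio of large to small subunit counts was 1.35 ± 0.00289 in the libraries labelled cKO and 1.31 ± 0.00346 in the Ctrl libraries, or 1.29 ± 0.00305 and 1.27 ± 0.00321 without Rpl41.

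In the small subunit the largest fall was that of Rps19, whose protein is needed for maturation of the small subunit and is the ribosomal protein most often mutated in human Diamond-Blackfan anaemia. It had 845, 838 and 849.8 CPM in the libraries labelled cKO, against 1224, 1201 and 1186 CPM in the Ctrl libraries (log2 fold change -0.51, SE 0.0145, adjusted p = 1.42e-44). The groups were clearly apart, with a fall of 1.43-fold. Rps27, which encodes a small zinc-finger subunit protein, had 606, 601 and 610.3 CPM in the libraries labelled cKO, against 888, 833 and 852 CPM in the Ctrl libraries (log2 fold change -0.50, SE 0.0172, adjusted p = 1.24e-38). Rps28, which encodes a protein beside the channel where the mRNA leaves, had 349, 348 and 352 CPM in the libraries labelled cKO, against 489.8, 483 and 482 CPM in the Ctrl libraries (log2 fold change -0.47, SE 0.0195, adjusted p = 2.94e-34). Rps27 fell 1.42-fold and Rps28 1.39-fold, and all their Ctrl values were above all their values in the libraries labelled cKO. Of the 19 genes here that are known for mutations in human Diamond-Blackfan anaemia, a list compiled after the values were seen, all 19 fell (median -0.26, from -0.51 to -0.061). Of all 78 genes 93.6% fell, with a median of -0.28, so this count is near that of the whole class.

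Neighbouring small subunit proteins differed in size of change. Rps14 and Rps28 at the mRNA exit fell by 0.42 and 0.47 on the log2 scale and Rps26 there fell by 0.20. At the mRNA entry Fau fell by 0.46 and Rps3 by 0.17, while Rps2 rose. Rps2 had 1238, 1234 and 1228 CPM in the libraries labelled cKO, against 1126, 1141 and 1138 CPM in the Ctrl libraries (log2 fold change 0.12, SE 0.0134, adjusted p = 1.80e-12). All 3 libraries labelled cKO were above all Ctrl libraries, by 1.09-fold in the fit. Rps18, at the head of the small subunit, had 1101, 1109 and 1106 CPM in the libraries labelled cKO, against 1466, 1466 and 1449.8 CPM in the Ctrl libraries (log2 fold change -0.40, SE 0.0131, adjusted p = 1.31e-40). Rps14 had 1315, 1315 and 1300.2 CPM in the libraries labelled cKO, against 1767, 1770.0 and 1739.9 CPM in the Ctrl libraries (log2 fold change -0.42, SE 0.0126, adjusted p = 2.89e-43). Rps14 and Rps18 are among the 5 genes with the highest FPKM of the 99.

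Of the 2 genes that encode a ribosomal protein fused to a ubiquitin-type tag, Fau changed more. Fau, whose tag is a ubiquitin-like protein, had 575, 576 and 582 CPM in the libraries labelled cKO, against 797, 806 and 783 CPM in the Ctrl libraries (log2 fold change -0.46, SE 0.0164, adjusted p = 3.33e-38). Rps27a, one of the genes that supply ubiquitin itself, had 1156, 1179 and 1171 CPM in the libraries labelled cKO, against 1240.5, 1234 and 1225 CPM in the Ctrl libraries (log2 fold change -0.078, SE 0.0134, adjusted p = 6.67e-07). Both fell without overlap, Fau by far more. Rack1, a scaffold protein on the small subunit that lies outside the symbol rule, fell by 0.20 on the log2 scale. Rpsa, whose protein is also described as a laminin receptor, had 1906, 1866 and 1872 CPM in the libraries labelled cKO, against 2189, 2202 and 2203 CPM in the Ctrl libraries (log2 fold change -0.22, SE 0.0117, adjusted p = 2.56e-28). Rps6, the substrate of the S6 kinases, had 836, 847 and 856 CPM in the libraries labelled cKO, against 988, 991 and 996 CPM in the Ctrl libraries (log2 fold change -0.23, SE 0.0147, adjusted p = 4.22e-23). Rps6 and Rpsa each fell 1.17-fold, with no overlap between the groups.

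In the large subunit Rpl17 was among the genes that fell most. Rpl17, whose protein sits at the exit of the tunnel for the new peptide, had 646, 652 and 637 CPM in the libraries labelled cKO, against 923, 912 and 902 CPM in the Ctrl libraries (log2 fold change -0.50, SE 0.0158, adjusted p = 1.73e-41). Over 8 proteins that line the tunnel or its exit the change was uneven, with 7 that fell, Rpl17 most, and Rpl39, deep in the tunnel, that did not pass (784 ± 24.6 CPM in the libraries labelled cKO and 775 ± 23.5 CPM in the Ctrl libraries, log2 fold change 0.016, SE 0.0202, adjusted p = 0.503). The partners of the 5S RNA, Rpl5 and Rpl11, which also bind Mdm2 when they are in excess, fell by 0.20 and 0.14. Rpl13a, known in human monocytes as a silencer of inflammatory mRNAs when it is off the ribosome, had 2036, 2050.3 and 2076 CPM in the libraries labelled cKO, against 2755, 2716 and 2748 CPM in the Ctrl libraries (log2 fold change -0.42, SE 0.0112, adjusted p = 7.39e-46).

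The stalk, which recruits translation factors to the large subunit, had members with unlike changes. Its base protein gene Rplp0 had 2396, 2383 and 2345 CPM in the libraries labelled cKO, against 3329, 3345 and 3340.3 CPM in the Ctrl libraries (log2 fold change -0.49, SE 0.0107, adjusted p = 4.52e-52). Rplp1 had 1780.0, 1789 and 1765 CPM in the libraries labelled cKO, against 2036, 2036 and 2048 CPM in the Ctrl libraries (log2 fold change -0.20, SE 0.0117, adjusted p = 3.82e-25). Rplp2 had 472, 479 and 468 CPM in the libraries labelled cKO, against 506, 501 and 492 CPM in the Ctrl libraries (log2 fold change -0.079, SE 0.0186, adjusted p = 0.000172). All 3 fell without overlap, by 1.41-fold, 1.15-fold and 1.06-fold, and Rpl12 at the foot of the stalk fell by 0.44 on the log2 scale.

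Rpl41 was the largest exception among the 78. It encodes the smallest ribosomal protein, a short basic peptide in the bridge between the subunits. It had 1935, 1947 and 1938 CPM in the libraries labelled cKO, against 1458, 1437 and 1452 CPM in the Ctrl libraries (log2 fold change 0.42, SE 0.0121, adjusted p = 5.47e-44). The libraries labelled cKO lay together well above the Ctrl libraries, a rise of 1.34-fold while most of its partners fell. By FPKM, which allows for length, Rpl41 stood at 4355 ± 17.5 FPKM in the libraries labelled cKO and 3200.2 ± 23.6 FPKM in the Ctrl libraries, and Rplp1 at 3829 ± 27.1 FPKM in the libraries labelled cKO and 4323 ± 17.8 FPKM in the Ctrl libraries. Rpl41 had the highest FPKM of the 78 genes in the libraries labelled cKO, and Rplp1 had the highest in Ctrl. The lowest were Rpl21 with 139 FPKM in the libraries labelled cKO and Rps15a with 169.7 FPKM in Ctrl. These places depend on the gene length behind the FPKM, which was 5136 bp for Rps15a and 1856 bp for Rpl21. By mean CPM Rps15a stood at 745 in the libraries labelled cKO and 879 in Ctrl, against 255 and 349 for Rpl21. The median over the 78 genes was 979 FPKM in the libraries labelled cKO and 1175 FPKM in Ctrl, and their order by FPKM was close in the 2 groups (Spearman's rho 0.98 over 78 genes, which share the libraries).

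**Figure D3:**
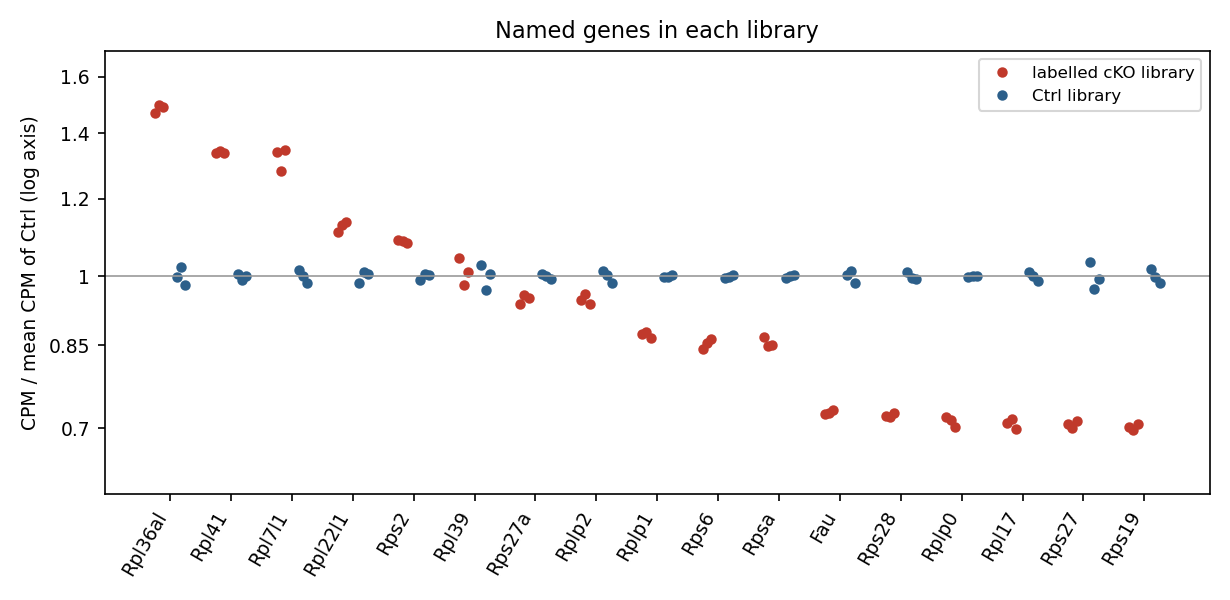
CPM of each library divided by the mean CPM of the Ctrl libraries (log axis) for named genes, ordered by fold change, 3 points per group. Apart from Rpl39 the points of the 2 groups are separate, from Rpl36al at the top of the range to Rps19 at the bottom.

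The genes grouped here as relatives of ribosomal protein genes gave rises and no falls. Of 5 that could be tested, Rpl36al, Rpl7l1 and Rpl22l1 rose, none fell, and Rps27l and Rpl39l did not pass. For comparison, 30.8% of all genes tested rose and 30.6% fell. The absence of falls rests on the grouping, since Rpl6l and Rpl32l, whose symbols also end in l, were placed with the retrogene copies and fell. Rpl36al, a near copy of the large subunit gene Rpl36a, had the largest rise of all members, with 237, 241 and 239.9 CPM in the libraries labelled cKO, against 161, 165 and 158 CPM in the Ctrl libraries (log2 fold change 0.57, SE 0.0267, adjusted p = 5.68e-31). Its parent Rpl36a had 462, 452 and 455 CPM in the libraries labelled cKO, against 494, 473 and 489 CPM in the Ctrl libraries (log2 fold change -0.089, SE 0.0192, adjusted p = 4.37e-05). The copy rose 1.48-fold and the parent fell 1.06-fold, each without overlap. As a share of Rpl36a by FPKM, Rpl36al stood at 48.5%, 50.5% and 49.9% in the libraries labelled cKO, against 30.8%, 33% and 30.6% in the Ctrl libraries. These ratios did not overlap, and the exact two-sided permutation p was 0.1, the smallest that 3 against 3 libraries can give.

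Rpl7l1, whose human protein takes part in assembly of the large subunit, had 92.9, 88.8 and 93.3 CPM in the libraries labelled cKO, against 70.3, 69.4 and 68.2 CPM in the Ctrl libraries (log2 fold change 0.40, SE 0.0415, adjusted p = 9.51e-14). Its relative Rpl7 had 1404, 1413 and 1412 CPM in the libraries labelled cKO, against 1549, 1539 and 1546 CPM in the Ctrl libraries (log2 fold change -0.13, SE 0.0125, adjusted p = 3.70e-15). As a share of Rpl7 by FPKM, Rpl7l1 stood at 2.37%, 2.25% and 2.37% in the libraries labelled cKO, against 1.63%, 1.62% and 1.58% in the Ctrl libraries (exact permutation p = 0.1). Rpl22l1 is a relative of Rpl22, and in mouse cells Rpl22 protein is known to hold Rpl22l1 mRNA down. Rpl22l1 had 191, 195 and 196 CPM in the libraries labelled cKO, against 169.7, 174 and 173 CPM in the Ctrl libraries (log2 fold change 0.17, SE 0.0275, adjusted p = 1.31e-07). Rpl22 had 521, 509 and 508 CPM in the libraries labelled cKO, against 499, 492 and 508 CPM in the Ctrl libraries (log2 fold change 0.036, SE 0.0184, adjusted p = 0.0798). Before rounding the values of Rpl22 did not overlap between the groups, although it did not pass the test, and it passed as a rise in 6 of the alternative settings. Relative to Rpl22 by FPKM, Rpl22l1 stood at 176%, 183% and 185% in the libraries labelled cKO, against 163%, 169% and 163% in the Ctrl libraries (exact permutation p = 0.1), and it was the only relative with a higher FPKM than its parent. That order rests on gene lengths of 489 bp for Rpl22l1 and 2343 bp for Rpl22, and by CPM Rpl22l1 was below Rpl22 in every library. The size of each such percent depends on the lengths used, which are the same in both groups.

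Rps27l, a relative of Rps27 that p53 is known to induce in human cells, had 116, 108 and 106 CPM in the libraries labelled cKO, against 110.1, 102 and 109 CPM in the Ctrl libraries (log2 fold change 0.038, SE 0.0371, adjusted p = 0.38). Its values overlapped while Rps27 fell, and relative to Rps27 by FPKM it stood at 3.07%, 2.88% and 2.8% in the libraries labelled cKO, against 2%, 1.97% and 2.06% in the Ctrl libraries (exact permutation p = 0.1). Rpl39l, known from male germ cells, had 178, 133 and 203 counts in the libraries labelled cKO, against 160, 152 and 168 counts in the Ctrl libraries (log2 fold change 0.10, SE 0.183, adjusted p = 0.637). Rpl3l, known from skeletal and heart muscle, had 7, 9 and 13 counts in the libraries labelled cKO, against 6, 2 and 20 counts in the Ctrl libraries and was too low to test. Its abundant parent Rpl3 fell (1305 ± 18.7 CPM in the libraries labelled cKO and 1587 ± 11.9 CPM in the Ctrl libraries, log2 fold change -0.28, SE 0.013, adjusted p = 2.15e-31). The ratios of Rpl3l to Rpl3 and of Rpl39l to Rpl39 overlapped between the groups (exact permutation p = 0.7 for each). The 8 skeletal muscle markers together ran from 14 to 29.7 CPM in the libraries labelled cKO and 11.2 to 15 CPM in the Ctrl libraries, with 1 of 7 tested, Ckm, higher and none lower. The 6 germ cell markers in the table together were at most 0.526 CPM in any library labelled cKO and 0.893 CPM in any Ctrl library, and Prm1 was at 0 counts in all libraries labelled cKO.

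**Figure D4:**
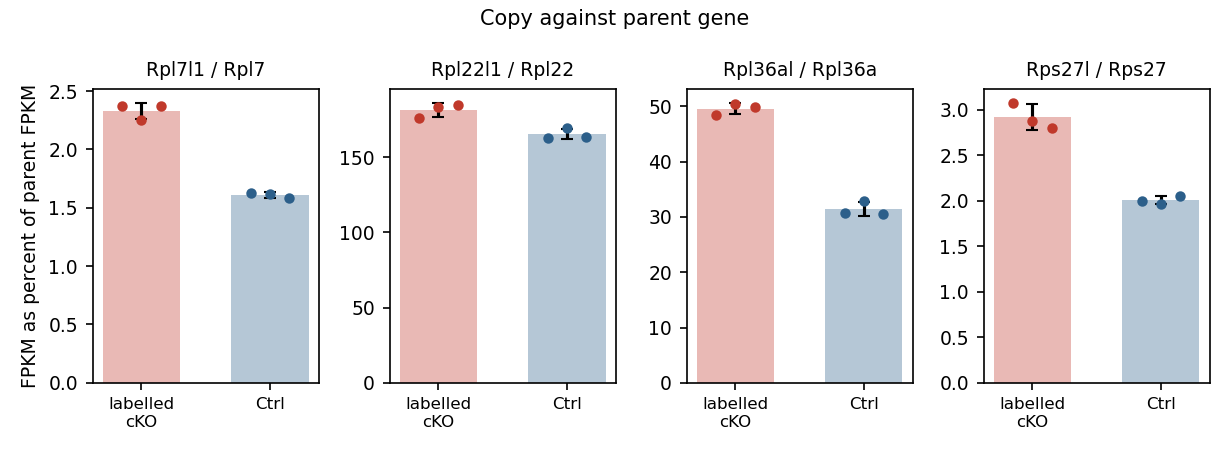
FPKM of Rpl7l1, Rpl22l1, Rpl36al and Rps27l as a percent of the FPKM of the parent gene. Points are libraries, bars the mean and whiskers the SD (n = 3 each), and in each panel every library labelled cKO lies above every Ctrl library.

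Most genes grouped here as retrogene copies fell. Of the 5, Rpl6l, Rpl32l, Rpl37rt and Rps27rt fell and Rps23rg1 did not pass at 2 to 11 counts per library. The share of all genes tested that fell was 30.6%. Rps27rt had 63.8, 65.1 and 62.7 CPM in the libraries labelled cKO, against 80.5, 88.2 and 85 CPM in the Ctrl libraries (log2 fold change -0.40, SE 0.044, adjusted p = 7.88e-13), a fall of 0.40 on the log2 scale beside 0.50 for Rps27. Rpl32l had 53, 72 and 54 counts in the libraries labelled cKO, against 100, 71 and 107 counts in the Ctrl libraries (log2 fold change -0.63, SE 0.281, adjusted p = 0.0472), and its groups overlapped, with 1.98 CPM both in the highest library labelled cKO and in the lowest Ctrl library. Its call was lost without cKO replicate 1 or 3 and without Ctrl replicate 1 or 3, with adjusted p of 0.116 to 0.161, and in 5 other settings, with 0.0536 to 0.0836. Of the 9 genes with pseudogene-type names, 5 could be tested and none passed, and the other 4, all copies of Rps12, had at most 6 counts in a library. Standard errors of the 5 ran from 0.28 to 0.66 on the log2 scale, so the lack of a call does not show the lack of a change. Rps19bp1 did not pass either (18.5 ± 1.55 CPM in the libraries labelled cKO and 16.9 ± 0.989 CPM in the Ctrl libraries, log2 fold change 0.13, SE 0.0916, adjusted p = 0.229). Ribosomal protein genes have many near-identical copies in the genome, and how reads with several matches were counted is not given in the sources used here, so values of copies and their parents are uncertain.

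Start sites were compared for the genes at both ends of the range. Windows from 250 bases before to 50 bases after each annotated start were taken from RefSeq (GRCm38.p6), which matched 69 of the 99 genes by gene number. The following windows run 5′ to 3′ on the gene's strand from 30 bases before to 30 bases after the start, and capitals mark pyrimidine motifs (CTTTC or CTTTT, and CTCTT or CCTTT) that lie wholly within 10 bases of it. Rps19, with its 3 annotated starts, Rps27, Rplp0, Rps28 and Fau are shown as genes that fell, Rps27rt as the copy that shares the start of Rps27, and Rpl41, Rpl36al, Rpl7l1, Rpl22l1 and Rps2 as genes that rose.
Rps19 (chr7:24884562-24884621, + strand): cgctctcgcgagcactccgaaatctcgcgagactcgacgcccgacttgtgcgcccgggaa
Rps19 (chr7:24884646-24884705, + strand): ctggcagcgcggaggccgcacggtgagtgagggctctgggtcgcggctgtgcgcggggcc
Rps19 (chr7:24884883-24884942, + strand): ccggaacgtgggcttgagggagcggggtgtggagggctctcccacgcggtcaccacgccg
Rps27 (chr3:90213619-90213678, - strand): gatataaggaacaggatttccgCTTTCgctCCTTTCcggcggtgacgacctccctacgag
Rps27rt (chr9:114982710-114982769, - strand): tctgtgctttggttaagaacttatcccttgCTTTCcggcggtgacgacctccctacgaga
Rplp0 (chr5:115559437-115559496, + strand): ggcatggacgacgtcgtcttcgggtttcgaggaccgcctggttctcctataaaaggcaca
Rps28 (chr17:33824533-33824592, - strand): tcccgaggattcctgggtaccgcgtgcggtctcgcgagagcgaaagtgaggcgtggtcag
Fau (chr19:6057917-6057976, + strand): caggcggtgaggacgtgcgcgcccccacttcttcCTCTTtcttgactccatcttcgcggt
Rpl41 (chr10:128549139-128549198, - strand): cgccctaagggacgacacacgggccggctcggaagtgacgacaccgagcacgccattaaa
Rpl36al (chr12:69184038-69184097, - strand): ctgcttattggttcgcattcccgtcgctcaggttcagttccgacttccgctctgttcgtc
Rpl7l1 (chr17:46782627-46782686, - strand): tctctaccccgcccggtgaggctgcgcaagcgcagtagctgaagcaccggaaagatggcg
Rpl22l1 (chr3:28805478-28805537, + strand): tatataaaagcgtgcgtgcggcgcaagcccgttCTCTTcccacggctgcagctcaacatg
Rps2 (chr17:24720033-24720092, + strand): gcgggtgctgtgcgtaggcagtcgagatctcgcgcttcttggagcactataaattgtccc

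Only 58 of the 78 genes had a window, with 68 windows in all. Any of these 4 pyrimidine motifs, searched on the gene's strand only, was within 10 bases of the start in 19 of these 68 windows (27.9%), against 7.14% of all 32851 windows. The motifs overlap each other in longer pyrimidine runs. The median log2 fold change was -0.26 over the 19 genes with such a window and -0.26 over the 39 without. This split rests on the annotated starts, whose accuracy was not tested. In the printed windows of Rplp0 and Rps2, TATAAA lies after the annotated start, so these starts may not be exact. The 39 genes may thus include some whose motif lay outside the searched bases. For this reason the equal medians cannot decide whether the change goes with the motif. Both Fau, which fell, and Rpl22l1, which rose, had CTCTT within 10 bases of the annotated start. The letters CCGGAAG, the core that ETS-type factors bind, searched on both strands of the 300 bases, were in 36.8% of the 68 windows against 8.86% of all windows. The median log2 fold change was -0.19 over the 24 genes with CCGGAAG and -0.32 over the 34 without. The letters TATAAA, on either strand, were in 8.82% of the 68 windows against 13.6% of all windows. The genes with TATAAA were Rpl22, Rpl36a, Rpl39, Rplp0, Rps2 and Rps28, which include both rising and falling genes, with a median of -0.036 against -0.27 over the other 52. The letters GCCATCTT, which YY1 binds, were on either strand in 11.8% of the 68 windows against 2.75% of all windows, with a median of -0.34 over the 6 genes with them and -0.24 over the 52 without. The letters CACGTG, an E-box, were on either strand in 11.8% of the 68 windows against 7.15% of all windows, with a median of -0.36 over the 6 genes with them and -0.25 over the 52 without. The searches for these 4 longer motifs were chosen after the values were seen, and these medians are descriptions without a test.

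Ribosomal protein genes are short and abundant, so their changes were set beside gene length. The Pearson correlation of fold change with log2 length over the 78 genes was 0.013 and Spearman's rho was 0.019, as a description of genes that share libraries. The 51 of them under 1000 bp had a median log2 fold change of -0.28 and the 27 longer ones -0.24. The 825 other tested genes under 1000 bp had a median of 0.025, and the 90 of those that reached 200 CPM had -0.45, with 57 lower and 30 higher. The correlation with log2 FPKM in Ctrl was -0.12 (rho -0.22).

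**Figure D5:**
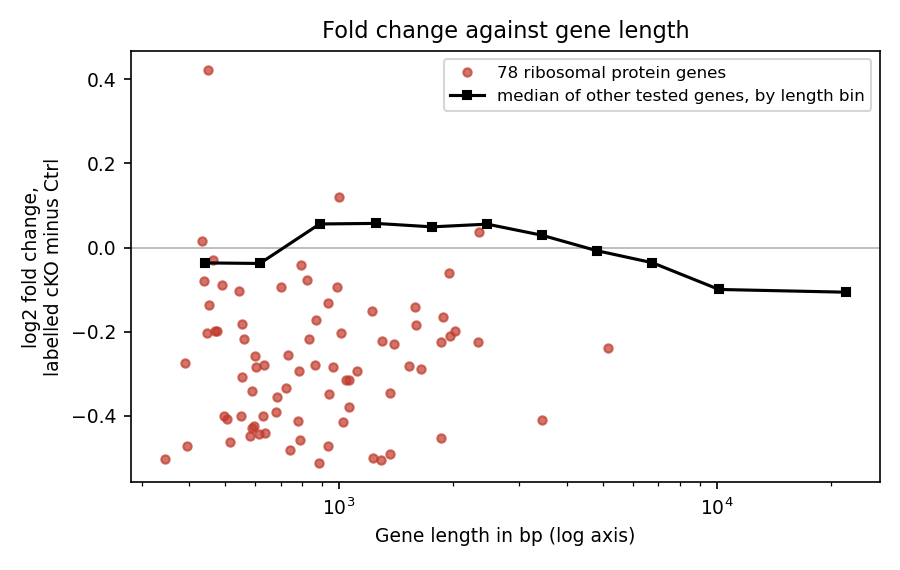
Fitted log2 fold change (labelled cKO minus Ctrl) against gene length in bp (log axis) for the 78 ribosomal protein genes, with the median of the other tested genes in each of 11 length bins. The bin medians stay between -0.11 and 0.057, while 74 of the 78 points lie below 0, all but Rpl41, Rps2, Rpl22 and Rpl39.

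Other genes of the same pathway did not share one direction. Among all genes tested 30.6% fell and 30.8% rose by the same rule, which the counts below are to be read against. Of 20 TOP mRNA genes that encode no ribosomal protein, 10 fell and 7 rose (median -0.033). Among these Tpt1, which encodes the abundant growth-associated protein TCTP, fell most (2299.7 ± 7.01 CPM in the libraries labelled cKO and 3239 ± 17.6 CPM in the Ctrl libraries, log2 fold change -0.49, SE 0.0106, adjusted p = 1.87e-52), and Npm1, which encodes the nucleolar ribosome assembly factor nucleophosmin, rose most (581 ± 12.5 CPM in the libraries labelled cKO and 378 ± 5.37 CPM in the Ctrl libraries, log2 fold change 0.62, SE 0.0191, adjusted p = 3.34e-42). Of 16 genes of TOP mRNA control by mTORC1 and LARP1, 6 rose and 5 fell (median -0.085). Eif4ebp1, a translation repressor that mTORC1 inactivates, rose by 0.62 on the log2 scale, and Tsc2, an upstream brake on mTORC1, fell by 0.26. Of 13 genes for chaperones and nuclear import of ribosomal proteins, 9 rose and 1 fell (median 0.30). Grwd1, the chaperone of Rpl3, rose most (35.5 ± 1.64 CPM in the libraries labelled cKO and 17.7 ± 1.28 CPM in the Ctrl libraries, log2 fold change 1.01, SE 0.0752, adjusted p = 6.02e-20), while Rpl3 itself fell, and Aamp fell by 0.087. All 78 tested mitochondrial ribosomal protein symbols gave 43 that rose and 5 that fell (median 0.21), and the difference from the cytosolic genes was not tested.

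Genes that act on finished, stalled or surplus ribosomes were split as well. Among all genes tested 30.8% rose and 30.6% fell, so a split was also seen over all genes. Of 17 genes of stalling and quality control 8 rose and 3 fell (median 0.056). Pelo, which rescues stalled ribosomes, rose by 0.78 and Zfp598, a ubiquitin ligase that senses collided ribosomes, fell by 0.41. Of 6 genes of idle ribosomes 3 rose and 2 fell (median 0.17). Ifrd2, which blocks inactive ribosomes, rose by 0.77 and Eef2k, the kinase that slows elongation, fell by 0.65. Of 7 genes that watch free ribosomal proteins 1 rose and 4 fell (median -0.17). Trp53 rose by 0.56, and Huwe1, a ubiquitin ligase for unassembled ribosomal proteins, fell by 0.28.

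Markers of several cell types moved with the fall of the ribosomal protein genes. Of 8 keratinocyte markers 5 rose and 3 fell, and their sum ran from 60778 to 61496 CPM in the libraries labelled cKO and 32535 to 32835 CPM in the Ctrl libraries. On the log2 scale Krt1, of differentiating layers, rose by 3.24 and Col17a1 fell by 0.64. All 8 neutrophil markers rose, Trem1 most (5.79), with sums of 3549 to 3612 CPM in the libraries labelled cKO and 103 to 109 CPM in the Ctrl libraries. Of 8 macrophage markers 7 rose, Adgre1 most (1.03), with sums of 700.1 to 721 CPM in the libraries labelled cKO and 522 to 538 CPM in the Ctrl libraries. Of 7 T cell markers 6 rose, with sums of 13.9 to 15 CPM in the libraries labelled cKO and 3.6 to 5.05 CPM in the Ctrl libraries, and Cd8a, the largest rise, had 43 counts over the libraries labelled cKO and 1 over the Ctrl libraries. The sums of the immune cell markers did not overlap between the groups. Of 6 fibroblast markers 5 rose, Col3a1 most (1.18), and Dcn fell by 0.34, with sums of 16139.8 to 16182 CPM in the libraries labelled cKO and 11087 to 11189.7 CPM in the Ctrl libraries. All 6 red blood cell markers fell, Slc4a1 by 1.74, with sums of 74.3 to 75.4 CPM in the libraries labelled cKO and 122 to 135 CPM in the Ctrl libraries. Of 8 hair shaft markers 7 fell, Krt86 by 1.37, with sums of 2291 to 2325 CPM in the libraries labelled cKO and 4367 to 4503 CPM in the Ctrl libraries. None of these markers was at 0 over a group, and the part of these shifts in the ribosomal protein result was not tested.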

How the data were processed

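RNA of mouse tail skin was measured in 3 libraries labelled cKO and 3 labelled Ctrl, grouped by their labelled genotype. Both tables deposited by the authors, raw counts and FPKM, cover the same 18180 genes. Per the submitters' processing notes, fastp, HISAT2, HTSeq and the build mm39 were used. Their versions, the gene annotation and the strand setting were not stated in any source used here. The deposited FPKM could be rebuilt from the counts, a gene length and the column totals, and so add no reads. No column of values was left without a sample.

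Counts were analysed in R 4.3.3 with edgeR 4.0.16: filterByExpr with a minimum count of 10 and a minimum total of 15, TMM scaling, a robust quasi-likelihood fit with group as the only term over all 6 libraries, and Benjamini-Hochberg adjustment over 15061 genes, of which 94 were members. Calls need an adjusted p under 0.05, and tests are two-sided. Standard errors were computed as the size of the log2 fold change over the root of its F statistic. Steps were tested on simulated counts. limma 3.58.1 and DESeq2 1.42.0 served for alternatives. 3 counts, the limit that a count of 0 allows, are 0.0817 to 0.0837 CPM, for counting error only.

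Members and gene lists were chosen with earlier results of these data known. Named members are the 8 called genes with the largest rise (5 existed) and the 8 with the largest fall, the 5 with the highest FPKM, stalk proteins, ubiquitin-type fusions, Rpsa, Rps6, and relatives with their parents; others are named in counts or roles after their values were seen. From each list the called genes with the largest rise and fall are named. Some genes that these rules name are not reported here.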

Additional observations from a re-analysis of the deposited data

How the results depend on the processing

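Under 19 alternatives to the main analysis, the median log2 fold change of the members stayed negative. It was -0.25 with upper-quartile scaling, -0.25 with library totals only, -0.23 by limma on log2(FPKM + 1), -0.23 on log2(FPKM + 0.1) and -0.20 on log2(FPKM + 1) without a filter, where the pseudocount understates changes of low genes. The counts of members called, higher and lower were 82, 5 and 77 in the main analysis, 47, 3 and 44 with at least 1.2-fold required, and 0, 0 and 0 with an assumed biological coefficient of variation of 0.2, where the lowest adjusted p among members was 0.0665 (Rpl36al). By DESeq2 and limma-voom 73 of the 78 genes fell and 2 rose, as in the main analysis. Leaving out a library gave 72 to 73 that fell and 2 to 3 that rose. The same 71 of the 78 fell in every refit except that with the assumed coefficient of variation, and 42 fell with at least 1.2-fold required. The others of the 73 were Rpl10 (adjusted p = 0.0093, and 0.0511 to 0.503 where it was lost, among these without cKO replicate 2) and Rpl15 (0.00167, and 0.0527 to 0.108 where lost). Rpl22, not called in the main analysis, rose with adjusted p of 0.00159 to 0.0334 in 6 settings, among them without Ctrl replicate 3. The sign of Rpl38 turned with upper-quartile scaling (0.0004), and that of Rpl39 without cKO replicate 1 or Ctrl replicate 2 (-0.0048 and -0.0062), none of them called. The cause was not tested.

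The share of counts in members differed by -1.33 percentage points (labelled cKO minus Ctrl), by -1.29 without the 14 top genes and by -2.17 as a share of summed FPKM, and leaving out a library gave -1.34 to -1.31. Same-numbered libraries of the 2 groups did not deviate together (correlations -0.041 to -0.0099 over all genes tested), and the replicate block gave 73 of the 78 lower and 2 higher, a median of -0.28 over members, and lost only the call of Rpl32l among named members (adjusted p = 0.0621). Depth limits statements on Rpl3l, Rps23rg1 and the genes with pseudogene-type names.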

Other observations

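The symbol rule left out the genes with Rps6k symbols, which include the S6 kinases that phosphorylate Rps6. Of 9 that could be tested, Rps6ka1, Rps6ka4, Rps6kb1, Rps6kb2 and Rps6kc1 rose, Rps6ka3 fell, and Rps6ka2, Rps6ka5 and Rps6ka6 did not pass. By the same rule 30.8% of all genes tested rose and 30.6% fell. Rps6ka4, which encodes the stress-activated kinase MSK2, had 114, 123 and 119 CPM in the libraries labelled cKO, against 73.3, 84.4 and 82.3 CPM in the Ctrl libraries (log2 fold change 0.57, SE 0.0403, adjusted p = 2.96e-20). The S6 kinase gene Rps6kb1 had 62.8, 62.1 and 56.5 CPM in the libraries labelled cKO, against 50.9, 54.7 and 52.8 CPM in the Ctrl libraries (log2 fold change 0.20, SE 0.0509, adjusted p = 0.000584). The groups did not overlap in either gene.

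Of the 2 entries left out as pseudogenes, Rpl34-ps1 had 1187, 1192 and 1276 counts in the libraries labelled cKO, against 1290, 1208 and 1290 counts in the Ctrl libraries (log2 fold change -0.046, SE 0.0633, adjusted p = 0.547), without a call, while Rpl34 fell (561 ± 4.01 CPM in the libraries labelled cKO and 622 ± 2.83 CPM in the Ctrl libraries, log2 fold change -0.15, SE 0.0171, adjusted p = 3.69e-12). Rpl31-ps12 had 12 counts over the libraries labelled cKO and 15 over the Ctrl libraries.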
